A study of Mus musculus with 13 samples.

Results

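The mitochondrial ribosomal protein genes were taken as the protein-coding genes of the deposited count table whose symbol begins with Mrpl or Mrps followed by a number. Of the 54532 genes in the table, 83 rows matched that pattern. Of these, 78 were protein-coding members, 49 named for the large subunit and 29 for the small subunit, and 5 were processed pseudogenes that were left out, none with more than 34 counts in a library. In all, 77 members passed the filter on low counts, as did 14280 genes of the whole table. The member that did not pass was Mrpl53 (chr6:83109040-83109939, plus strand), which was listed at 0 counts in all 13 libraries, a value that allows up to 3 counts in each. Its whole span lies inside the same-strand gene Gm42688, so the table holds no measurement of it. The genes were measured by RNA sequencing of liver from wild-type C57 BL6 mice aged 8 weeks, in 4 groups. The first group of 3 samples received saline. The second group of 3 samples received D-galactosamine (GalN, 500 mg/kg) with lipopolysaccharide (LPS, 5 µg/kg) into the peritoneum, a model of acute liver injury, and livers were taken 6 hours later. The third group of 4 samples, called pretreated here, received 300 µg/kg dmPGE2, a dimethyl analogue of prostaglandin E2, 1 hour before the same GalN/LPS dose. The fourth group of 3 samples received dmPGE2 without GalN/LPS. The labels give 1 library for each sample and do not say how many mice or cages stood behind it, so the p-values speak only for the spread among these libraries, which may be technical.

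Mitochondria keep their own ribosome, which translates the few messenger RNAs encoded by mitochondrial DNA, all of them for core subunits of the respiratory chain and the ATP synthase. Its ribosomal RNAs come from mitochondrial DNA, but every one of its proteins is encoded in the nucleus, made on cytosolic ribosomes and imported. Some of these proteins have counterparts in bacterial ribosomes and others exist only in mitochondria. Liver parenchymal cells are rich in mitochondria and hold large amounts of this machinery. Galactosamine is an amino sugar that hepatocytes trap as uridine nucleotide conjugates, and it is known for blocking RNA synthesis in those cells and for sensitising them to the cytokines that LPS evokes.

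The libraries held 14829838 to 20777809 counted reads. Between 32700 and 55600 of these per library fell on the members, and the tested members had 1360 (Mrps6) to 17311 (Mrpl30) reads over all libraries. The count table was scaled by TMM (trimmed mean of M values, which assumes that most genes do not change), and these factors differed between groups, with 1.17 to 1.18 for saline, 0.904 to 1.14 for GalN/LPS and 0.683 to 0.830 for pretreated libraries. The library GalN/LPS 2 stood apart from its group with the factor 0.904. The 100 most abundant genes took 46.3 to 46.8% of the reads in saline and 49.5 to 54.1% in the pretreated group. Summed hepatocyte markers (Alb, Apoa1, Ttr, Serpina1a and Cps1) were at 80800 to 95100 CPM (read counts scaled to library size with the TMM factors) for saline, 85500 to 121000 for GalN/LPS, 128000 to 205000 for pretreated and 61100 to 67700 for dmPGE2 libraries. This sum is given after TMM scaling only, and not marker by marker. As a share of counted reads, Alb alone ranged from 6.69 to 11.4% among pretreated libraries. That range covers the Alb shares of saline (7.1 to 8.35%) and of GalN/LPS (7.29 to 8.38%), whereas dmPGE2 libraries held 5.66 to 6.16%. The higher marker sum of the pretreated group is therefore not read apart from the scaling. Neutrophil markers, all 6 with counts, summed to 4.33 to 16.0 CPM for saline, 654 to 866 for GalN/LPS and 252 to 405 for pretreated libraries, and the 6 macrophage markers to 91.3 to 117, 475 to 741 and 209 to 323 CPM. In the same order, sinusoidal endothelial markers summed to 44.0 to 48.0, 310 to 379 and 78.8 to 171 CPM, T and NK cell markers to 1.30 to 1.74, 10.4 to 14.1 and 6.34 to 7.17, and erythroid markers to 221 to 599, 917 to 1690 and 648 to 1020. The part of these shifts in the values below was not tested, and in whole liver fewer cells of a type and less RNA per cell cannot be told apart.

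The family spanned a wide range of levels. By the deposited FPKM, a level per gene length and library size and the only scale on which genes are compared with each other here, the median member had a mean of 10.7 over the libraries, against 2.04 for all genes tested, 101 for nuclear subunits of the respiratory chain and 138 for cytosolic ribosomal proteins. Large-subunit members had a median of 13.1 FPKM and small-subunit members one of 7.94. The most abundant were Mrpl52 at 56.9 FPKM, Mrpl34 at 53.6, Mrpl14 at 51.8, Mrps21 at 51.5 and Mrpl27 at 46.8. The least abundant were Mrps25 at 1.99, Mrps30 at 1.91 and Mrpl19 at 1.68, so that the highest and lowest tested members lay 33.9-fold apart although the proteins are assembled into 1 particle. The summed CPM of the large-subunit members was 2.08 to 2.26 times that of the small-subunit members in each of the 13 libraries.

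As a whole, the members took a smaller share of the reads after GalN/LPS. Their share was 0.271, 0.293 and 0.271% of all counted reads in the saline libraries, 0.215, 0.211 and 0.224% in GalN/LPS, 0.227, 0.217, 0.202 and 0.189% in the pretreated and 0.267, 0.238 and 0.270% in the dmPGE2 livers. No library of either injured group reached the lowest uninjured one. After TMM scaling the order of the groups was different. The summed level was then 2290 to 2490 CPM for saline, 1890 to 2340 for GalN/LPS, 2610 to 3170 for pretreated and 2040 to 2150 for dmPGE2 libraries, with GalN/LPS 2 the highest of its group. The pretreated group thus lay lowest or highest depending on the scaling, and the direction of the family in that group is given under both scalings throughout. A comparison of the members with all other genes does not depend on this choice, since any scaling moves all genes alike.

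**Figure D1:**
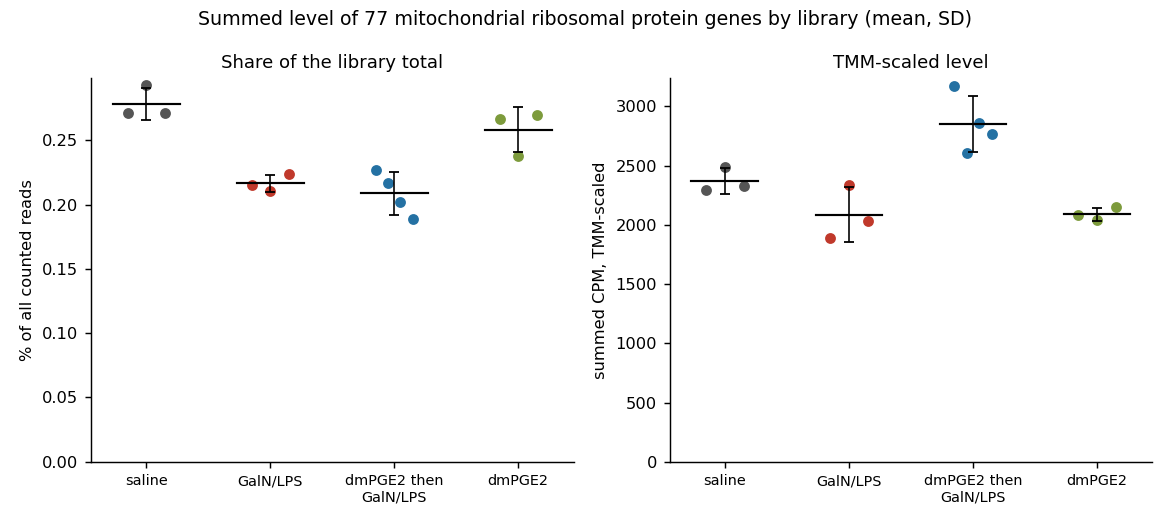
Summed level of the 77 tested mitochondrial ribosomal protein genes in each of 13 libraries, as a percentage of all counted reads (left) and as summed TMM-scaled CPM (right). Points are libraries, lines are group means and bars are SD. The pretreated group (labelled dmPGE2 then GalN/LPS) is the lowest by share of reads (0.189 to 0.227%) and the highest after TMM scaling (2610 to 3170 CPM).

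GalN/LPS against saline asks what the injury does to these transcripts within 6 hours. More members fell than rose. By edgeR's quasi-likelihood test at an adjusted p under 0.05, 25 of 77 members were lower and 6 were higher, where 25.6% of all genes tested were lower and 27.4% higher (52.9% in either direction). The share of members that fell was 32.5% and the share that rose 7.79%. Their median log2 fold change was -0.17, against 0.02 over all genes tested, which places the members 0.19 below the typical gene. With library totals in place of TMM, 38 members were lower and 2 higher with a median of -0.34, beside 30% of all genes lower and 21.5% higher with a median of -0.15. All 25 falls passed the test under each of 4 scalings (TMM, DESeq2's size factors, library totals, and totals without the 100 most abundant genes), and of the 6 rises those of Mrpl13 and Mrpl33 did. Both kinds of totals placed the members lower than TMM did, so these scalings could take away rises more readily than falls. Relative to the family's own sum, 16 members fell, as given below. Without the library GalN/LPS 2 the counts were 35 lower and 3 higher. The number higher was also 3 without GalN/LPS 3 and 2 without saline 1.

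Mrpl47 (chr3:32725397-32737605, minus strand), counterpart of a protein at the exit of the bacterial peptide tunnel, had the largest fall. It was at 12.7, 18.5 and 13.8 CPM in saline, 5.79, 4.98 and 6.04 in GalN/LPS, 4.52, 5.26, 5.17 and 5.92 in the pretreated and 13.2, 14.3 and 14.1 in the dmPGE2 livers. The libraries of both injured groups lay below all those of both uninjured groups, with no overlap between them. The log2 fold change in GalN/LPS was -1.42 ± 0.17 (SE; edgeR adjusted p = 3.89e-06). Mrpl15 (chr1:4773206-4785739), counterpart of the bacterial large-subunit protein of the same number, was at 52.5, 62.9 and 56.3 CPM in saline and at 22.5, 27.8 and 22.4 in GalN/LPS, a log2 fold change of -1.24 ± 0.14.

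Mrps30 (chr13:118378381-118387252), which despite its name sits in the large subunit, was at 16.7, 20.7 and 16.1 CPM in saline and at 9.82, 7.63 and 7.17 in GalN/LPS, a log2 fold change of -1.12 ± 0.17. Mrps2 (chr2:28468066-28471178), a small-subunit protein with a bacterial counterpart, went from 31.0, 33.4 and 28.6 to 15.2, 15.3 and 12.2 CPM, also at -1.12 with an SE of 0.14. The mitochondria-specific Mrpl43 (chr19:45005014-45006442) and Mrps26 (chr2:130563742-130568695), of the large and the small subunit, both had a log2 fold change of -1.01. For these 4 genes, too, every GalN/LPS library was below every saline library. The remaining 19 falls ranged down from -0.95 for Mrpl4 to -0.38 for Mrpl45.

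The 6 rises were smaller. Mrpl33 (chr5:31596935-31664384), counterpart of the bacterial protein of that number, was at 14.8, 18.0 and 14.7 CPM in saline and at 26.9, 23.9 and 24.8 in GalN/LPS. Its log2 fold change was 0.67 ± 0.16 (edgeR adjusted p = 0.00212). Mrpl13 (chr15:55534094-55557748), likewise of bacterial ancestry, went from 32.8, 32.9 and 35.5 to 44.5, 55.7 and 50 CPM, a log2 fold change of 0.57 ± 0.12. In neither gene did a GalN/LPS library overlap with saline. The other rises were 0.45 for Mrps25 and Mrps18c, 0.39 for Mrpl52 and 0.36 for Mrpl54, and none of these 4 passed the test with library totals (0.26, 0.28, 0.22 and 0.19). Counted by libraries alone, 29 members had all GalN/LPS libraries below all saline libraries and 6 all above, where 29.5% of all genes were below and 30.3% above.

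**Figure D2:**
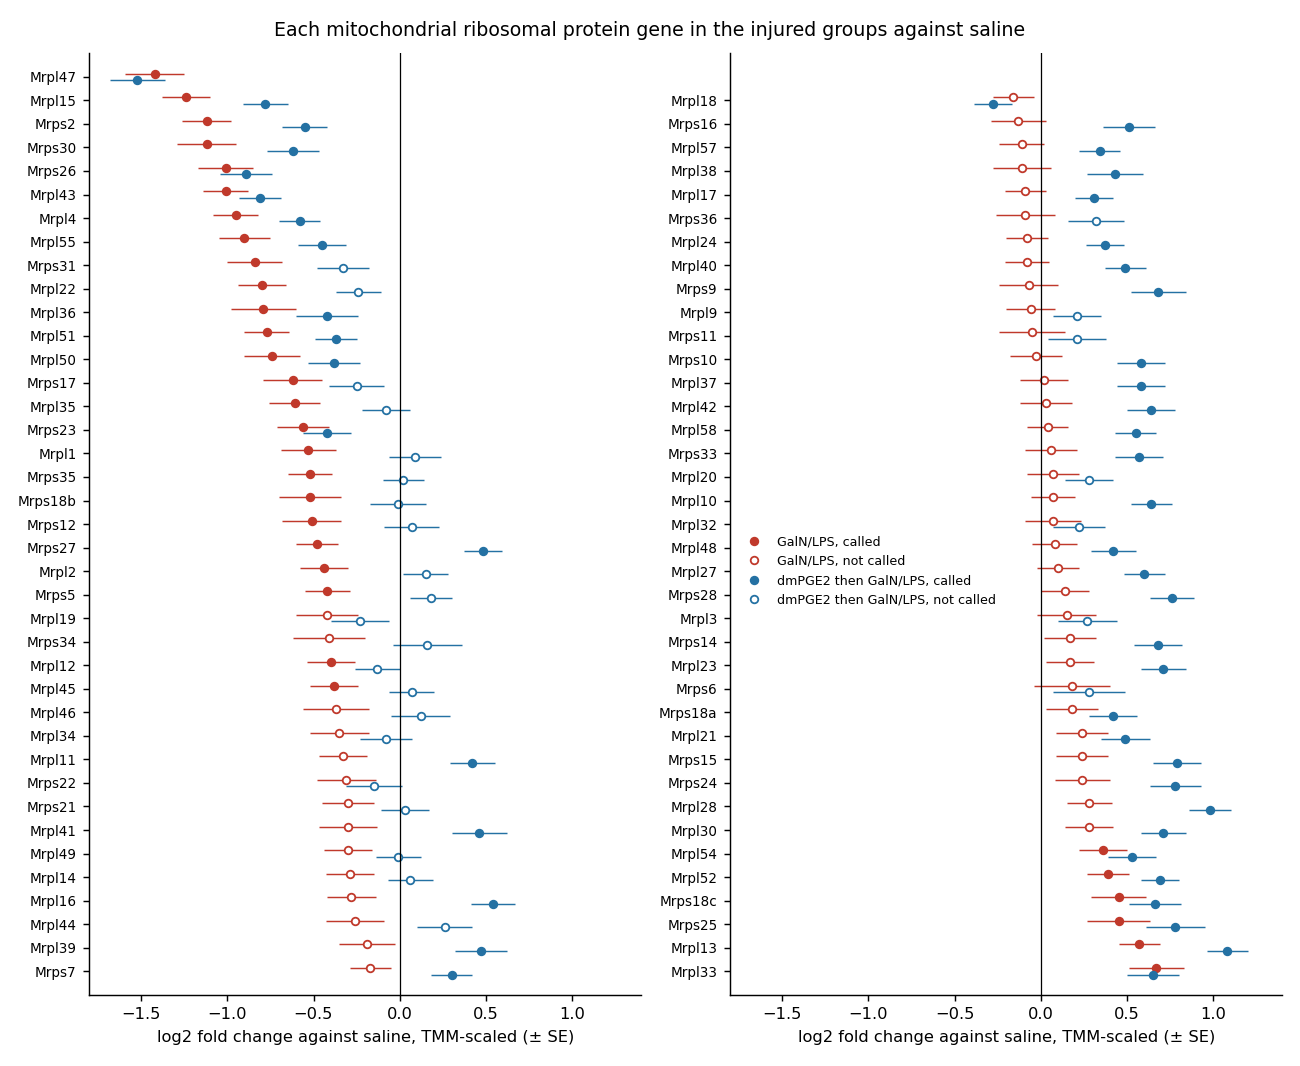
TMM-scaled log2 fold change against saline of each of the 77 tested members, in GalN/LPS (red) and in the pretreated livers (blue, labelled dmPGE2 then GalN/LPS), sorted by the first. Bars are SE and filled points have an edgeR adjusted p under 0.05. Mrpl47 is at -1.42 and -1.52, whereas Mrps27 is at -0.48 and 0.48; with library totals, 2 of the 36 filled blue points to the right of 0 remain called higher and 42 members are called lower in that group.

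Members of one particle therefore did not all move alike. In GalN/LPS against saline they ran from -1.42 to 0.67 log2, against -6.92 to 10.8 over all genes tested. A range widens with the number of genes, so these ranges are not like measures of spread, and the SD over all genes is not given here. Of all genes tested, 7.46% lay at 2.75 or above, as did 0 members. The SD of the log2 fold changes over members was 0.45 in GalN/LPS against saline, compared with 0.17 in dmPGE2 against saline. When each library was scaled to the members' own summed counts, so that only differences within the family remain, 16 members rose relative to the family and 16 fell. Relative rises were those of Mrpl33, Mrpl13, Mrps18c and Mrps25 with 12 others, and relative falls those of Mrpl47, Mrpl15, Mrps2 and Mrps30 with 12 others. Both directions held members of both names. By the TMM-scaled test 14 of the 48 members named Mrpl (29.2%) and 11 of the 29 named Mrps (37.9%) fell, the latter including Mrps30 of the large subunit. Of all genes tested, 25.6% were lower and 27.4% higher in this contrast, and the differences between these subsets were not tested. Among the 10 small-subunit members listed as mitochondria-specific, Mrps18b among them, 6 were lower (60%) and 1 was higher, with a median of -0.50. Among the 21 large-subunit members listed as mitochondria-specific, 6 were lower and 2 higher with a median of -0.19, a list that also held Mrpl47 although that protein has a bacterial counterpart, and Mrps30. Of the 45 members listed with bacterial counterparts, 13 were lower (28.9%) and 3 higher (6.67%) with a median of -0.09. Among the 13 was Mrpl55, which is regarded as specific to mitochondria. The log2 fold changes had a Spearman correlation over the 77 members of 0.145 with mean FPKM and of -0.0298 with gene length, given as a description of members that share the same libraries.

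The pretreated livers against the GalN/LPS livers ask what dmPGE2 given beforehand changes in injured liver. Relative to the median gene tested, the members were higher in the pretreated group, as were the respiratory and cytosolic ribosomal protein genes counted below. The members were not set against genes matched for level. Their median log2 fold change was 0.46 by TMM, against -0.10 over all genes, and -0.05 by library totals, against -0.61 over all genes, so that by either scaling the median member lay 0.56 above the median gene. By edgeR with TMM, 51 of 77 members were higher and 0 lower, where 24.4% of all genes were higher and 30.1% lower (54.5% in either direction). At an unadjusted p under 0.05, 0 members were lower by edgeR, by DESeq2 or by limma on log2(FPKM + 1), and DESeq2 called 46 higher and limma 45. For these counts the share of all genes is not given here. With library totals 1 member was higher and 4 (Mrpl18, Mrpl32, Mrpl33 and Mrpl47) were lower, where 4.31% of all genes were higher and 47.6% lower. All 4 pretreated libraries lay above all 3 GalN/LPS libraries for 48 members after TMM scaling and all below for 0, beside 22.7% and 27.7% of all genes. This shift was also more even than that of the injury, with an SD of 0.21 over members.

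**Figure D3:**
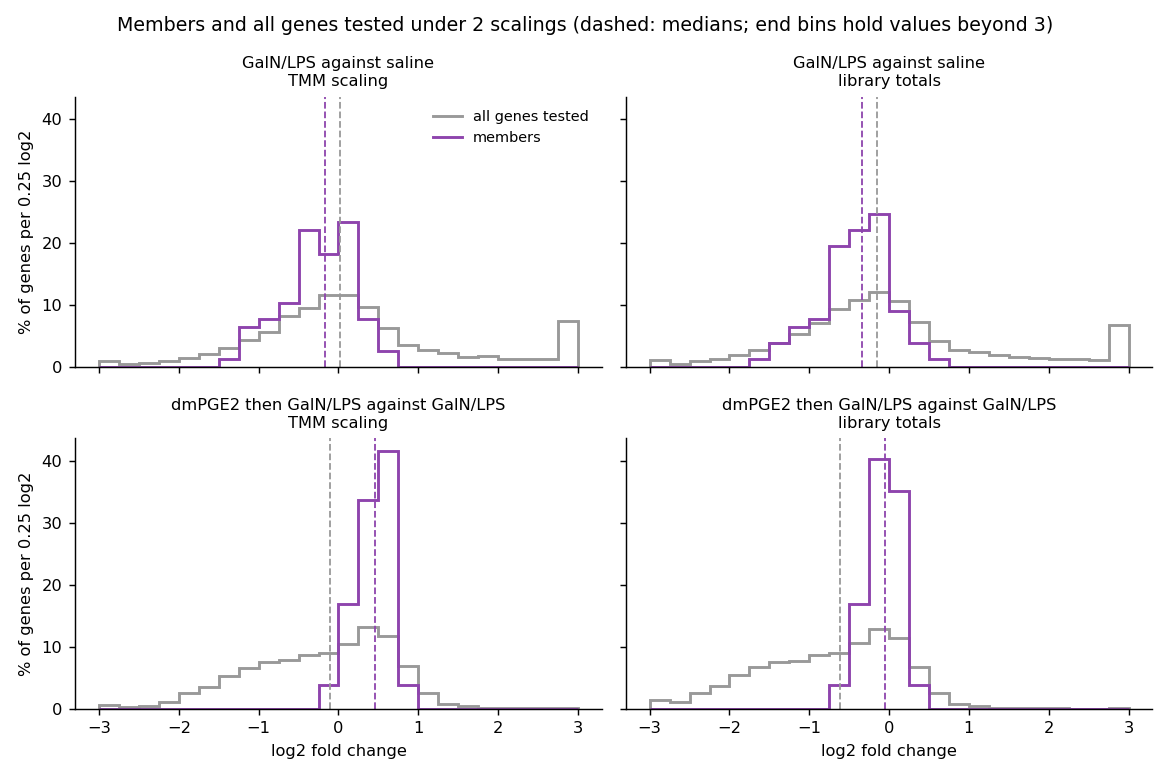
Percentage of members (purple, 77 genes) and of all genes tested (grey, 14280 genes) in each bin of 0.25 log2 fold change, for GalN/LPS against saline (top) and pretreated against GalN/LPS (bottom), with TMM scaling (left) and library totals (right). Dashed lines are medians and the end bins hold values beyond the axis. In the lower panels the members' median is 0.46 by TMM and -0.05 by library totals, and lies 0.56 above that of all genes in both.

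Mrps27 (chr13:99344786-99415562), an RNA-binding repeat protein of the mitochondrial small subunit, had the largest difference and was called higher under all 4 scalings, which held for no other member. It was at 21.1, 22.3 and 23.8 CPM in saline, 15.6, 15.6 and 17.0 in GalN/LPS, 33.6, 29.2, 33.4 and 28.6 in the pretreated and 21.3, 21 and 23.5 in the dmPGE2 livers. GalN/LPS was the lowest group and the pretreated group the highest, without overlap. The log2 fold change of pretreated against GalN/LPS was 0.96 ± 0.12 (edgeR adjusted p = 2.22e-05) with TMM and 0.44 (adjusted p = 0.0162) with library totals. Against saline, Mrps27 was at -0.48 in GalN/LPS and at 0.48 in the pretreated livers by TMM, the latter being -0.20 by library totals and not called.

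Next came Mrpl16 at 0.82 ± 0.13, Mrpl41 at 0.76 ± 0.16, Mrpl11 at 0.75 ± 0.14, Mrps9 at 0.75 ± 0.16 and Mrpl28 at 0.70 ± 0.12 log2 by TMM, with 0.31, 0.26, 0.25, 0.23 and 0.20 by library totals, none of which passed the test there. Mrpl16 lies near the peptidyl transferase centre and Mrpl11 at the base of the stalk that binds translation factors, and Mrps9 and Mrpl28 have bacterial counterparts, whereas Mrpl41 is specific to mitochondria. Mrpl16 was at 22.9, 30.7 and 27.5 CPM in GalN/LPS and at 54.6, 42.2, 52.2 and 41.6 in the pretreated livers. Against the family's own sum, Mrps27, Mrpl16 and Mrpl11 were higher in the pretreated livers and Mrpl18, Mrpl47 and Mrpl33 lower. Mrpl18, at 27.2, 26.5 and 26.2 CPM in GalN/LPS and 26.7, 21.7, 24.3 and 25.8 in the pretreated livers, encodes a protein that in bacteria binds the smallest ribosomal RNA.

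**Figure D4:**
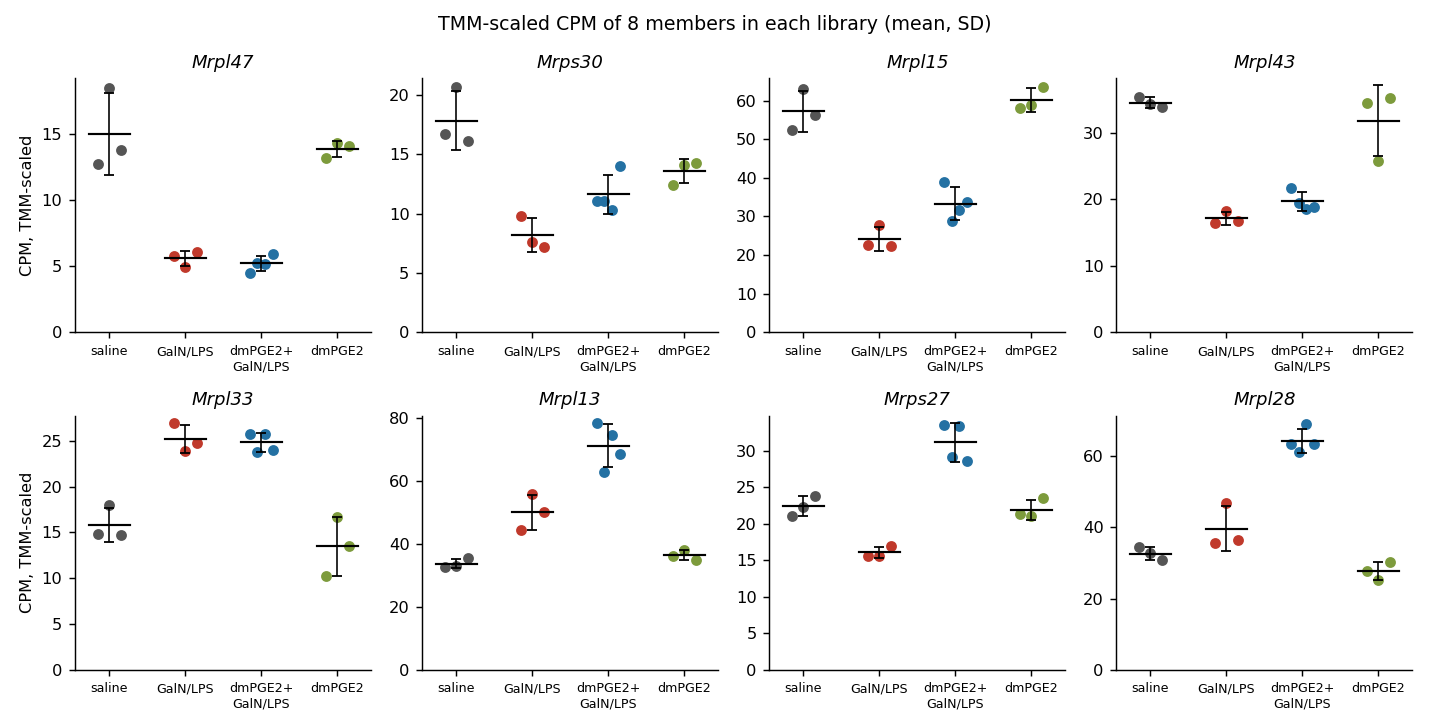
TMM-scaled CPM of 8 members in each library, with group means and SD; the pretreated group is labelled dmPGE2+ GalN/LPS. Mrpl47 stays at 4.52 to 6.04 CPM in both injured groups, Mrpl33 is at 23.8 to 26.9 in both, Mrpl13 and Mrpl28 are highest in the pretreated livers, and Mrps27 is lowest in GalN/LPS and highest in the pretreated livers after TMM scaling.

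The pretreated livers were also set against saline. By edgeR with TMM, 36 members were higher and 13 lower, where 34.8% of all genes were higher and 30.2% lower (65% in either direction), and the median log2 fold change was 0.28, against 0.14 over all genes. With library totals 2 were higher and 42 lower with a median of -0.40, against -0.54 over all genes and beside 11.8% of genes higher and 47.6% lower. The median member lay 0.14 above the median gene. By libraries alone after TMM, 33 members lay above saline and 13 below without overlap, beside 32.6% and 29.2% of all genes. The 13 falls passed the test under all 4 scalings, and of the 36 rises Mrpl13 and Mrpl28 did. Both kinds of totals again placed the members lower than TMM did, so falls were less open to loss than rises.

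This contrast and GalN/LPS against saline use the same saline libraries, so an agreement between them is not read as a result, and values are given side by side for 4 members chosen after their values were seen. Among members called lower in GalN/LPS, Mrps31 was at -0.84 there and at -0.33 ± 0.15 in the pretreated livers, Mrpl22 at -0.80 and -0.24 ± 0.13, and Mrps5 at -0.42 and 0.18 ± 0.12, none of them called in the second contrast by TMM. A miss there does not show a return to the saline level, since by library totals these 3 were called lower in the pretreated livers, at -1.01, -0.92 and -0.51. Mrpl52, called higher in GalN/LPS at 0.39, was at 0.69 ± 0.11 in the pretreated livers by TMM and at 0.00 by library totals.

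Mrpl47 was at -1.52 ± 0.16, Mrps26 at -0.89 ± 0.15, Mrpl43 at -0.81 ± 0.12, Mrpl15 at -0.78 ± 0.13, Mrps30 at -0.62 ± 0.15 and Mrpl4 at -0.58 ± 0.12 log2 in the pretreated livers against saline. Mrps30 was at 11.1, 11.1, 10.3 and 14 CPM there, and Mrpl15 at 38.8, 28.8, 31.8 and 33.8, in each case below all saline libraries. At the other end, Mrpl13 was at 78.4, 62.8, 74.6 and 68.7 CPM, a log2 fold change of 1.08 ± 0.12 (edgeR adjusted p = 1.14e-06), which was 0.39 by library totals (adjusted p = 0.0052). Mrpl28, at 34.4, 32.7 and 30.9 CPM in saline, was at 63.5, 61.1, 69.2 and 63.4, a log2 fold change of 0.98 ± 0.12 and of 0.29 by library totals (edgeR adjusted p = 0.0467). The small-subunit members Mrps15 at 0.79, Mrps24 and Mrps25 at 0.78 and Mrps28 at 0.76 followed by TMM and were not called by library totals, where they lay between 0.08 and 0.10. Mrps15, Mrps24 and Mrps28 have bacterial counterparts and Mrps25 does not.

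Without injury, dmPGE2 against saline asks for the effect of the compound itself. No member passed edgeR's test, as was the case for all genes tested (0.0% higher and 0.0% lower). At an unadjusted p under 0.05, 13 members were lower and 0 higher by edgeR, and DESeq2 called 3 lower at an adjusted p under 0.05, which were Mrpl14, Mrpl52 and Mrps21, and limma 0. The share of all genes at these thresholds is not given here, so these counts are not read as particular to the members. The members' median log2 fold change was -0.18 by TMM and -0.11 by library totals, against 0.02 and 0.09 over all genes, so 0.19 below the median gene by either scaling. All 3 dmPGE2 libraries lay below all 3 saline libraries for 31 members and above for 1, beside 12% and 14.3% of all genes. Mrps21, a small-subunit protein with a bacterial counterpart, was at 36.4, 51.6 and 42.1 CPM in saline and at 26.6, 30.4 and 27.7 with dmPGE2 (log2 fold change -0.62 ± 0.15, edgeR adjusted p = 0.0891). Mrpl14 was at 52.6, 56.0 and 56.3 and at 40.1, 33.7 and 39 CPM (-0.55 ± 0.14, edgeR adjusted p = 0.109). Mrpl52 was at 50.9, 55.6 and 51.8 and at 39.9, 41.8 and 38.6 CPM (-0.40 ± 0.12, edgeR adjusted p = 0.17). In all 3 genes the groups did not overlap.

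The difference between these effects was tested as an interaction, the dmPGE2 effect in injured livers less that in uninjured livers. By TMM it was above 0 for 76 of 77 members, and 46 were called higher and 0 lower, where 15.4% of all genes were higher and 19.6% lower (35% in either direction). At an unadjusted p under 0.05, 0 members were lower by edgeR, DESeq2 or limma, with 43 called higher by DESeq2 and 39 by limma. Counts at an unadjusted p or by DESeq2 and limma stand here, too, without the share of all genes. By library totals 0 were called higher and 1, Mrpl3, lower (-0.76, edgeR adjusted p = 0.0412), where 1.27% of all genes were higher and 36.5% lower, and 5 were higher at an unadjusted p under 0.05. The median was 0.63 by TMM against -0.11 for all genes, and 0.04 by library totals against -0.69, which is 0.74 above the median gene by TMM. The largest were Mrps10 at 1.08 ± 0.21, Mrpl38 at 1.07 ± 0.23, Mrpl2 at 1.00 ± 0.19, Mrps27 at 0.99 ± 0.17, Mrpl11 at 0.98 ± 0.20 and Mrpl39 at 0.95 ± 0.22. By library totals these were 0.51, 0.50, 0.43, 0.40, 0.42 and 0.38, and none passed. After TMM scaling, Mrps10 was at 31.2, 35.5 and 29.2 CPM in saline and 26.2, 20.2 and 22.4 with dmPGE2. It was at 26.4, 37.9 and 29.8 in GalN/LPS and 46.2, 43.9, 52.9 and 47.9 in the pretreated livers. Its log2 fold change by TMM was -0.48 in dmPGE2 against saline, which was not called. In pretreated against GalN/LPS it was 0.61 by TMM, and Mrps10 was not called higher there by library totals.

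Genes that assemble the mitochondrial ribosome and transcribe mitochondrial DNA were counted beside its proteins, and the differences between the lists were not tested. Of 27 tested assembly and ribosomal RNA modification factors, 19 were lower and 1 higher in GalN/LPS against saline, with a median of -0.71, and 20 lower and 0 higher by library totals. The methyltransferases Mrm2 and Mrm3 were at -2.91 ± 0.33 and -1.88 ± 0.20 log2, and Mterf4, which recruits a methyltransferase to the large subunit, at -1.56 ± 0.16. Of 18 genes for mitochondrial DNA transcription and RNA handling, 12 were lower and 2 higher with a median of -0.81. Polrmt, the mitochondrial RNA polymerase, was at 18.7, 19.4 and 17.7 CPM in saline, 5.52, 4.85 and 4.56 in GalN/LPS and 2.46, 3.21, 3.34 and 2.62 in the pretreated livers, so the injured groups did not overlap with saline or with each other. Its log2 fold change in GalN/LPS was -1.90 ± 0.16. Tfam, which packages and activates mitochondrial DNA, fell by 1.39 and was at 0.12 ± 0.15 in pretreated against GalN/LPS (edgeR adjusted p = 0.522). Lrpprc, which stabilises mitochondrial messenger RNAs, was at -0.19 in GalN/LPS against saline by TMM (edgeR adjusted p = 0.242) and 0.89 ± 0.13 higher in the pretreated than in the GalN/LPS livers, or 0.39 by library totals (adjusted p = 0.00664).

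Of 11 translation factors 4 were lower and 2 higher in GalN/LPS against saline by TMM, or 6 and 0 by library totals, and in pretreated against GalN/LPS 9 were higher and 1 lower by TMM, or 2 and 1 by library totals. The initiation factor Mtif3 was at -2.34 ± 0.27 in the first comparison, and the elongation factor Tufm rose by 0.34 ± 0.13 in the first and 0.81 ± 0.12 in the second, by TMM only. Of 21 genes for aminoacyl-tRNA synthesis 10 were lower, including Rars2 at -1.94, and 3 higher, including Lars2 at 1.28, in the same contrast by TMM, or 10 and 1 by library totals. In pretreated against GalN/LPS 12 were higher and 0 lower by TMM, or 4 and 3 by library totals, among them the amidotransferase subunit Gatb at 0.89 ± 0.11 (0.39 by library totals, edgeR adjusted p = 0.0144). The 5 subunits of the same ribosome that carry other names, among them Dap3 and Ptcd3, had a median of -0.06 in GalN/LPS against saline. In pretreated against GalN/LPS 4 of the 5 were higher by TMM and 1 by library totals. Dap3 was at -0.07 (edgeR adjusted p = 0.593) in the first contrast and 0.77 ± 0.10 higher in pretreated against GalN/LPS by TMM, or 0.26 by library totals (edgeR adjusted p = 0.11), and Ptcd3 at 0.08 and then 0.90 ± 0.11, or 0.39 by library totals (adjusted p = 0.0125). Of 12 import genes 5 were lower and 2 higher in GalN/LPS against saline by TMM, or 5 and 0 by library totals, with Timm17a of the inner-membrane translocase at -1.15 ± 0.16.

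Of 10 regulators known for nuclear genes of mitochondria, 5 were lower and 1 higher in GalN/LPS against saline, where 25.6% of all genes were lower. In pretreated against GalN/LPS 6 were lower and 1 higher, beside 30.1% of all genes lower, and in pretreated against saline 9 were lower, beside 30.2%. Ppargc1a, the coactivator, was at 3.94, 4.23 and 5.14 CPM in saline and at 1.17, 1.51 and 1.38 in GalN/LPS, a log2 fold change of -1.71 ± 0.25. Nrf1, whose site is discussed below, was at -0.31 ± 0.18 in GalN/LPS (edgeR adjusted p = 0.167) and fell by 1.27 in the pretreated livers against saline. Gabpa, of the ETS family, was at -0.56 and -0.47 in the same contrasts. Esrra was at -1.35 ± 0.16 and -1.99 ± 0.15, and the related coactivator Pprc1 at 0.84 ± 0.19 and -0.99 ± 0.19. Myc was at 0.84 ± 0.62 in GalN/LPS (edgeR adjusted p = 0.271) and at -2.48 ± 0.62 in pretreated against GalN/LPS. The members and the regulators thus stood on opposite sides of the typical gene in pretreated against GalN/LPS, at 0.56 above and 0.60 below it.

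Reads of the ribosome's RNAs were far more frequent in GalN/LPS than in saline. The small-subunit RNA mt-Rnr1 was at 172, 334 and 164 CPM in saline, 4580, 5060 and 5540 in GalN/LPS, 2550, 1430, 1850 and 2730 in the pretreated and 72.3, 103 and 85.5 in the dmPGE2 livers. The groups followed the order dmPGE2, saline, pretreated and GalN/LPS without overlap. Its log2 fold change was 4.50 ± 0.32 in GalN/LPS against saline (edgeR adjusted p = 1.29e-08) and -1.24 ± 0.26 in pretreated against GalN/LPS. The large-subunit RNA mt-Rnr2 was at 4.55 ± 0.33 and -1.29 ± 0.26. Together the 2 RNAs took 0.039 to 0.077% of reads in saline and 0.921 to 1.22% in GalN/LPS. The mitochondrially encoded messenger RNAs took 3.9 to 7.37% in saline and 5.97 to 6.4% in GalN/LPS. Nuclear ribosomal RNA genes in the table took 0.0915 to 0.118% in saline and 0.113 to 0.210% in GalN/LPS. The sources used here do not say how ribosomal RNA was removed, and whether its remaining reads follow the amount of ribosomal RNA was not tested. The 13 mitochondrially encoded messenger RNAs held 1 rise (mt-Co1, 0.98 ± 0.27) and 1 fall (mt-Co3, -1.62 ± 0.44) in GalN/LPS, and in pretreated against GalN/LPS 5 were lower and 0 higher by TMM with a median of -0.81, or 11 and 0 by library totals with a median of -1.34.

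Other nuclear genes for ribosomes and respiration gave other counts; the difference between lists was not tested. In GalN/LPS against saline 66 of 87 cytosolic ribosomal protein genes were higher and 1 lower by TMM with a median of 0.50, or 39 and 2 by library totals with 0.32. Nuclear subunits of the respiratory chain, 80 of them tested, were higher in 15 cases and lower in 1 with a median of 0.23, or 6 and 5 with 0.04 by library totals. The medians of both lists lay above that of all genes, by 0.47 and 0.21, whereas that of the members lay 0.19 below it. In pretreated against GalN/LPS all 3 sets lay above all genes, the members by 0.56, the respiratory subunits by 0.59 and the cytosolic ribosomal proteins by 0.42. There 44 of the cytosolic ribosomal protein genes were higher and 1 lower by TMM and 0 and 14 by library totals, and 66 and 0 of the respiratory subunits by TMM and 6 and 1 by library totals.

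**Figure D5:**
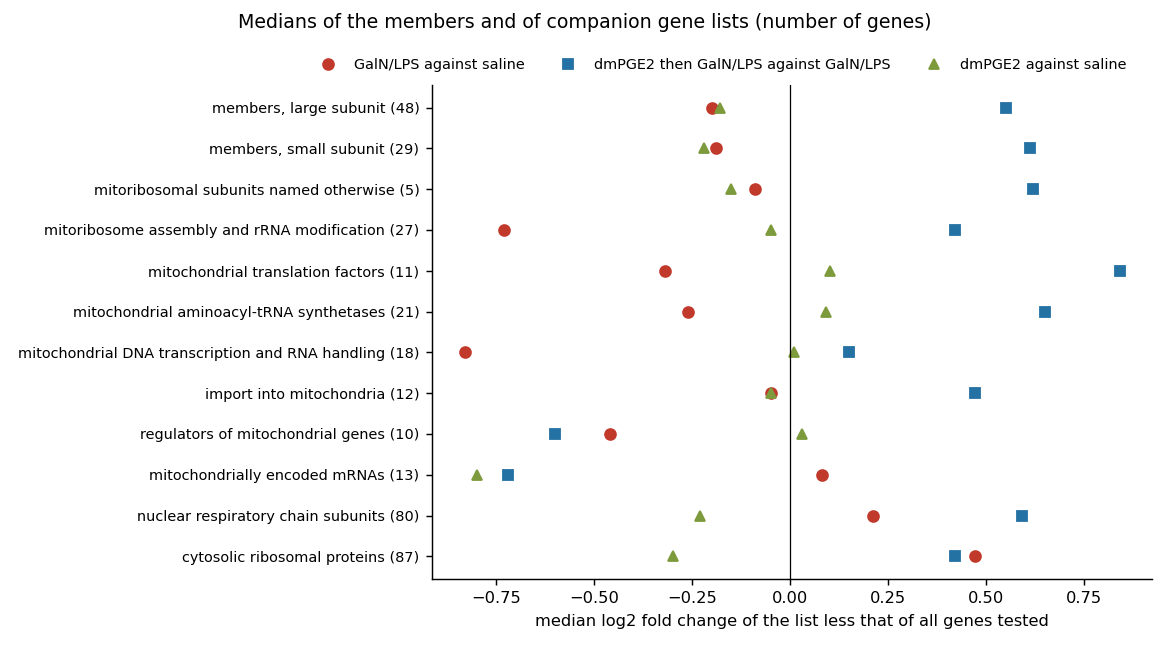
Median log2 fold change of the members by subunit and of companion gene lists (number of genes tested in brackets), less the median of all genes tested, in GalN/LPS against saline, pretreated (labelled dmPGE2 then GalN/LPS) against GalN/LPS, and dmPGE2 against saline. In GalN/LPS the assembly factors are at -0.73 and the transcription genes at -0.83, while both subunits are at -0.20 and -0.19.

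Some members share their stretch of genome with other genes, and 21 overlap another tested gene. In 6 of these the neighbour had more reads: Mrpl49 (Syvn1), Mrpl18 (Tcp1), Mrpl36 (Ndufs6), Mrpl48 (Rab6a), Mrps11 (Mrpl46) and Mrpl47 (Ndufb5 and Actl6a). The sources used here do not say whether strand was used in counting, so reads in such an overlap cannot be assigned with certainty. Mrpl47 overlaps Ndufb5, a respiratory complex subunit, by 616 bases on the opposite strand, with 2442 reads against 21356. Ndufb5 was at 0.27 ± 0.15 in GalN/LPS against saline (edgeR adjusted p = 0.144) and at 0.84 ± 0.14 in the pretreated livers against saline, both by TMM, and the second neighbour Actl6a was at -0.32 ± 0.18 and 0.13 ± 0.17. Mrpl36, which overlaps Ndufs6 by 30 bases, was at -0.79 ± 0.19 and Ndufs6 at 0.48 ± 0.15 in GalN/LPS.

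Many members start back to back with another gene. An opposite-strand protein-coding start within 1000 bases upstream, or an overlap of the starts by up to 200 bases, was found for 23 of 77 members (29.9%), against 10.3% of the 12770 protein-coding genes tested. In GalN/LPS against saline, member and partner were both called lower in 6 of these 23 pairs and in opposite directions in 2, and 7 pairs had no call. Of all genes tested, 25.6% were lower and 27.4% higher there. Whether paired genes share a call more often than unpaired genes was not tested. In the pretreated livers against saline, 7 pairs had a member called higher and a partner called lower by TMM, beside 34.8% of all genes higher and 30.2% lower. The sequences of 2 of the 8 pairs in which both genes passed the test in GalN/LPS against saline are printed as examples, chosen after their values were seen, and in both pairs member and partner were lower in that contrast. Among the 8, Mrpl36 with Ndufs6, described above, had the partner higher and is not printed. Mrpl43 starts 116 bases from Twnk, the mitochondrial DNA helicase, which was at 20.2, 18.3 and 21.9 CPM in saline, 5.57, 5.11 and 6.20 in GalN/LPS and 3.81, 4.03, 2.92 and 3.81 in the pretreated livers. Its log2 fold changes against saline were -1.84 and -2.46, beside -1.01 and -0.81 for Mrpl43. Mrps27 starts 81 bases from Ptcd2, a mitochondrial RNA-binding repeat protein, which was at -1.20 in GalN/LPS and -0.82 in the pretreated livers against saline, where Mrps27 was at -0.48 and 0.48 by TMM. The bases between the starts are given from RefSeq on build GRCm38.p6, 5′ to 3′ on the strand of the member, for Mrpl43 chr19:45006443-45006557 (minus strand) and for Mrps27 chr13:99344706-99344785 (plus strand), with capitals for the ETS motif CCGGAAG or its reverse complement CTTCCGG:
Mrpl43 to Twnk: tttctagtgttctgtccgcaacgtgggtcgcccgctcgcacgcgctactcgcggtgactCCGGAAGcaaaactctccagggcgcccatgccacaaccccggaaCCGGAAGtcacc
Mrps27 to Ptcd2: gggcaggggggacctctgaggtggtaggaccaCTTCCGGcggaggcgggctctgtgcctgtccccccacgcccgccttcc
The first stretch of 115 bases holds the motif 2 times and the second, of 80 bases, 1 time. Each stretch as printed begins at the partner's end and finishes beside the member's start.

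Promoters were matched for 68 of the 77 tested members in the RefSeq table, and the 250 bases before the start were searched on both strands. The ETS motif CCGGAAG was in 15 promoters (22.1%), against 13.6% of 10064 promoters of protein-coding genes tested. The core GCATGCGC of the site of NRF1, a transcription factor known for binding promoters of respiratory genes, was in 8 promoters (11.8%), against 4.37% of all, 12.5% of those of respiratory chain subunits and 0.0% of those of cytosolic ribosomal proteins. The YY1 motif AAGATGGCG was in 2.94% against 1.09%, CCAAT in 35.3% against 36.7% and the E-box CACGTG in 7.35% against 8.34%. With the 50 bases after the start searched as well, YY1 was in 11.8% against 3.12% and the ETS motif in 33.8% against 17.8%. The NRF1 core was then in 11.8% against 5.22%, CCAAT in 38.2% against 38.9% and the E-box in 7.35% against 10.1%. The members with the NRF1 core were Mrpl10, Mrpl17, Mrpl22, Mrpl32, Mrpl33, Mrpl39, Mrpl9 and Mrps18b. As printed below they include 1 that rose in GalN/LPS (Mrpl33), 2 that fell (Mrpl22 at -0.80 and Mrps18b at -0.52) and 1 that was not called (Mrpl10 at 0.07). Windows of 28 bases on the member's strand are shown for these 4 to set the same core beside different responses, with capitals for the core or its reverse complement GCGCATGC. They lie at chr5:31613929-31613956 (plus) for Mrpl33, chr11:58171621-58171648 (plus) for Mrpl22, chr17:35916646-35916673 (minus) for Mrps18b and chr11:97041438-97041465 (plus) for Mrpl10:
Mrpl33: accggaacccGCGCATGCcccggaagta
Mrpl22: gcctcggactGCGCATGCgtatagtcag
Mrps18b: acggcccgacGCATGCGCactgggagca
Mrpl10: ccagctccacGCATGCGCatagcggccc
The core begins 12 bases before the start in Mrpl33, 33 in Mrpl22, 223 in Mrps18b and 134 in Mrpl10. For Mrpl33 the RefSeq start lies 17016 bases inside the gene as the count table delimits it. The 8 members with the core had a median log2 fold change of -0.08 in GalN/LPS against saline and of 0.45 in pretreated against GalN/LPS by TMM, and the 60 without it had -0.21 and 0.45. In the same contrasts the 15 members with the ETS motif had -0.16 and 0.27, and the 53 without it -0.17 and 0.50. These matches describe letters in a window and were not tested against the expression values.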

How the data were processed

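Liver libraries were made with a NEBNext Ultra kit from 1 µg of total RNA per the labels' protocols. HISAT2 and the builds GRCm38 and mm10 are named per the submitters' processing notes; the sources used here name no counter and no strand setting. The deposited tables hold read counts per gene and FPKM for the same 13 libraries. Per the file headers both give each gene's length and position, and the FPKM denominators implied by the deposited counts were 0.706 to 1.28 times the library totals, near the TMM factors. The columns named ALF were taken as GalN/LPS.

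Counts were filtered with filterByExpr (minimum count 10) and fitted with edgeR 4.0.16 in R 4.3.3 (TMM, quasi-likelihood F test, group as the only term, all 13 libraries, 14280 genes, Benjamini-Hochberg over all genes at 0.05, two-sided). The 14280 genes held 99.9% of counts. The fit was tested on simulated data. Alternatives used DESeq2 1.42.0, limma 3.58.1 on log2(FPKM + 1) and log2(FPKM + 0.1), other scalings, no filter, the compared groups only and each library left out. Members named are the 6 with the largest change each way among those called in each comparison, the 5 highest and 3 lowest by FPKM, and members with no measurement. Companion genes were named from fixed lists by smallest adjusted p or in advance; motif, partner and sequence examples were chosen after their values were seen. The members and lists were chosen with earlier results of these data known.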

Additional observations from a re-analysis of the deposited data

Results flagged for a closer look

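In the pretreated group of 4, 6 of 77 members had 1 library far from the other 3 (a gap, as a share of the group's range, above Dixon's 95% critical value, which chance gives in about 1 of 20 groups). The library pretreated 1 was the highest for Mrpl2 at 66.0 CPM, Mrpl27 at 69.5, Mrpl51 at 46.0, Mrps15 at 55.3 and Mrpl46 at 25.7, and pretreated 2 the lowest for Mrpl1 at 21.2. The effect of dmPGE2 differed between injured and uninjured livers by edgeR's interaction test for 46 members, all higher, after TMM scaling. The largest log2 differences were Mrps10 at 1.08, Mrpl38 at 1.07, Mrpl2 at 1.00, Mrps27 at 0.99, Mrpl11 at 0.98 and Mrpl39 at 0.95, and with library totals in place of TMM none of the 46 was called.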

How the results depend on the processing

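Scaling decided most of what moved, and the cause of the other moves was not tested. Apart from those by library totals, counts below stand without the share of all genes called and are not read as particular to members. With library totals in place of TMM, members higher, members lower and their median log2 fold change were 2, 38 and -0.34 in GalN/LPS against saline, 1, 4 and -0.05 in pretreated against GalN/LPS, 2, 42 and -0.40 in pretreated against saline, and 0, 1 and 0.04 for the interaction. With totals that leave out the 100 most abundant genes, chosen after seeing the data, they were 3, 38 and -0.29, then 5, 3 and 0.05, then 2, 33 and -0.26, and for the interaction 10 higher with 0.21. Scaled to the members' own summed counts, also added later, they were 16, 16 and 0.02, then 3, 3 and 0.01, then 18, 21 and 0.01, then 0, 1 and -0.00, and the dmPGE2 median was -0.00. Without a filter on low counts 2 members were higher in GalN/LPS (median -0.30), 20 in pretreated against saline (0.12) and 30 for the interaction, and 1 was lower in dmPGE2. The fit of only the groups compared gave 0.12 for pretreated against saline. DESeq2 called 3 members lower in dmPGE2, and limma on log2(FPKM + 1), with or without the filter, gave a median of 0.49 for the interaction.

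Leaving out each library in turn gave 2 to 6 members higher and 19 to 35 lower in GalN/LPS against saline (median -0.28 to -0.11), 40 to 60 higher in pretreated against GalN/LPS (0.39 to 0.53), 27 to 36 higher and 9 to 15 lower in pretreated against saline (0.15, without GalN/LPS 3, to 0.34), and 31 to 54 higher for the interaction (0.54 to 0.72). The dmPGE2 median was -0.20 to -0.14. With the replicate block, for replicates 1 to 3, counts higher and lower were 4 and 24, 47 and 0, 0 and 0, 35 and 9, and 36 and 0, in the order GalN/LPS, pretreated against GalN/LPS, dmPGE2, pretreated against saline and interaction. The same 12 libraries without it gave 6 and 26, 51 and 0, 0 and 0, 35 and 12, and 43 and 0. The numbers did not pair the libraries: 18 same-number pairs had correlations of -0.315 to 0.0873, and 3 of 12 libraries correlated best with their own number. Of the alternatives for single named members, 820 kept the call and direction, 74 lost the call and 0 turned direction. Most of these members were named for the largest changes among those called. The count therefore does not speak for the other members, whose calls in the pretreated group depended on the scaling as given above.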
